A study of Bos taurus and Bos indicus x Bos taurus with 938 samples.

Results

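The regions gained by the 8-cell stage of bovine embryos made by in vitro fertilisation (IVF) are stretches of chromatin selected on their open calls: open in at least 15% of IVF 8-cell blastomeres and in at most 3% of IVF 2-cell blastomeres. The rule was applied to rows V1 to V274100 of a table that runs to V302830, and 0.598% of those rows met it. They are 1346 rows with more 8-cell calls than the least number that meets the rule and 294 rows with exactly that number. The values at the IVF 2-cell and IVF 8-cell stages chose the regions, so they are given below as a description only. The 4-cell and 5-7-cell IVF embryos, and every embryo made by somatic cell nuclear transfer (SCNT), had no part in the choice.

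Chromatin is called accessible where transposase can reach the DNA, which is mainly at promoters, enhancers and other sites held free of nucleosomes by bound proteins. An early mammalian embryo lives first on RNA and protein stored in the egg and later turns on its own genome, and in cattle the bulk of that switch takes place at about the stage used here to choose the regions. In SCNT the nucleus of a differentiated cell is placed in an egg whose own nuclear DNA was taken out, so the same switch has to start from somatic chromatin.

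ATAC-seq, in which Tn5 transposase cuts and tags open DNA, had been applied to single blastomeres, with the embryo of each recorded. The table held 398 IVF and 421 SCNT blastomeres. IVF embryos carry the organism label Bos indicus x Bos taurus and SCNT embryos the label Bos taurus. Per the labels' protocols, eggs for both types came from abattoir ovaries and were matured in culture, and the donor cells of the SCNT embryos are not named in the labels used here. Embryos are described by type and labelled cell number: IVF with 2, 3, 4, 5 to 7, 8 and 13 to 16 cells, and SCNT with 2, 3, 4, 5 to 7, 8 and 12 to 16 cells, beside 1 SCNT blastomere labelled 1-cell. A single embryo is named as the titles write it, for instance blastomere_65 for the embryo that gave the libraries blastomere_65A onward. All SCNT libraries have title prefix 15243 or 15244 and all IVF libraries 15286 or 15287, so embryo type, prefix and organism label cannot be told apart.

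Each value in the table is 0 or 1, a closed or open call, and no reads are given. Blastomeres had a median of 8221 open calls and at most 129163, and this number stands in for depth. An absent call can mean closed chromatin or few recovered fragments. The rows carry running numbers only, so no region can be tied to a gene, a position or a sequence, and regions are named by row. The rows fall into 29 blocks within which calls rise and fall together, and many IVF blastomeres had under 0.1 of the calls expected in at least 1 block. Among blastomeres with at least 1000 calls, that loss affected 54.3% at IVF 2 cells, 40.8% at IVF 4 cells, 38.2% at IVF 5 to 7 cells and 20.6% at IVF 8 cells, but none at SCNT 5 to 7, 8 and 12 to 16 cells. Columns were tied to libraries by their numbering, which is an inference. In the percent of calls in gained regions 3 SCNT embryos stand apart from others of their label. The values of blastomere_65 and blastomere_115, labelled 8-cell, lie among those of the 12-cell and 14-cell embryos, and that of blastomere_111, labelled 16-cell, lies below those of the 8-cell embryos. The labels are used as given, whether they are right was not tested, and the SCNT 8-cell and 12-16-cell results depend on them. The embryo is the unit of replication throughout, and nothing in the labels says which embryos shared a batch of eggs.

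By the rule a gained region had open calls in at least 16 of the IVF 8-cell columns and in at most 3 of the IVF 2-cell columns. Over the gained regions the mean share of blastomeres with an open call was 1.51% at 2 cells and 20% at 8 cells, while over all rows V1 to V274100 it was 4.47% and 4.63%. The 8-cell share ran from 15.5% to 48.5% with a median of 18.4%. Of the 17433 rows open in at least 15% of IVF 8-cell blastomeres, 9.41% were gained by this rule. The other 15793, open in over 3% of 2-cell blastomeres too, serve below as the regions open at both stages. The opposite choice, at least 15% at 2 cells and at most 3% at 8 cells, found 0.089% of rows, called the mirror set. There were 6.72 gained regions for each row of the mirror set.

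Many regions lay close to a threshold. Exactly 16 calls at 8 cells were found in 294 gained regions, such as V141, V607 and V657 at 15.5%, and 354 further rows missed the threshold by a single column, such as V572, V676 and V1173 at 14.6%. At the 2-cell stage 36.8% of gained regions had 3 calls, as V271, V315 and V749 did at 2.33%, and 640 rows were over by a single column, as V66, V1016 and V1172 were at 3.1%. No 2-cell call at all was present in 160 gained regions. When blastomeres lacking a block were left out, which kept 60 of the 2-cell and 82 of the 8-cell columns, 3823 rows met the same rule. Among the original regions 1376, or 83.9%, met it again, 12.1% went over 3% at 2 cells and 4.57% went under 15% at 8 cells.

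In the groups left out of the choice, the mean share of blastomeres in which a gained region was open was 6.36% in IVF 4-cell and 13.4% in IVF 5-7-cell embryos, beside 4.02% and 4.22% for all rows. In SCNT embryos it was 1.33% at 2 cells, 1.37% at 4 cells, 2.49% at 5 to 7 cells and 2.82% at 8 cells, beside 2.01%, 2%, 2.94% and 2.26% for all rows. At SCNT 12 to 16 cells it was 14.1% beside 3.9%. Averaged over their groups, then, gained regions were open less than the average row in SCNT embryos of 2, 4 and 5 to 7 cells, and more than the average row in IVF 4-cell and 5-7-cell and in SCNT 8-cell and 12-16-cell embryos. The SCNT 8-cell direction turned without blastomere_65 and blastomere_115, to 1.51% beside 2.14% for all rows. In IVF 3-cell embryos the mean was 1.56% beside 2.82%. Regions open at both stages were open more often than gained regions and than the average row in the following groups. Their means were 15.5% in IVF 4-cell and 21.9% in IVF 5-7-cell embryos. In SCNT embryos they were 6.14%, 7.58%, 11.2%, 9.73% and 23.7% at 2, 4, 5 to 7, 8 and 12 to 16 cells.

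**Figure D1:**
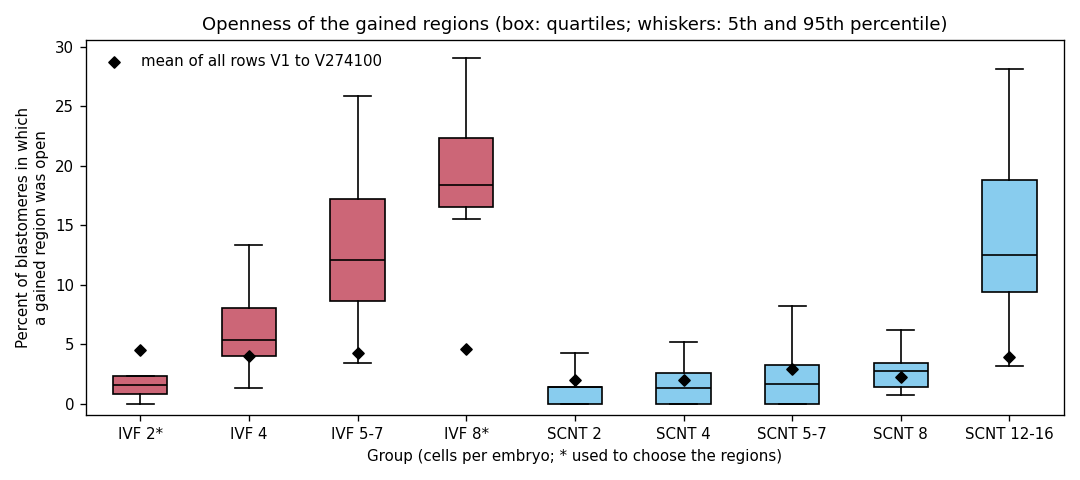
Percent of blastomeres of each group (x axis; asterisks mark the groups that chose the regions) in which each gained region was open (y axis), with boxes for the quartiles, whiskers for the 5th and 95th percentiles and diamonds for the mean of all rows searched. The IVF 5-7-cell and SCNT 12-16-cell boxes have medians of 12.1% and 12.5%, while the SCNT 8-cell median is 2.76%.

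Because blastomeres differed in their number of open calls, each embryo was also described by the percent of its open calls that fell in gained regions, summed over its blastomeres with at least 1000 calls. For the 2 groups that chose the regions this percent ran from 0.0903 through a median of 0.175 to 0.374 in 66 IVF 2-cell embryos and from 0.387 through 2.58 to 3.84 in 14 IVF 8-cell embryos. These are the values the choice was made from. Stage and title prefix nearly coincide in it, since 63 of the 66 IVF 2-cell embryos have prefix 15286 and all 14 IVF 8-cell embryos have 15287. The 3 IVF 2-cell embryos of prefix 15287 ran from 0.114 to 0.145. The 6 IVF 3-cell embryos ran from 0.198 to 0.417 with a median of 0.334.

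**Figure D2:**
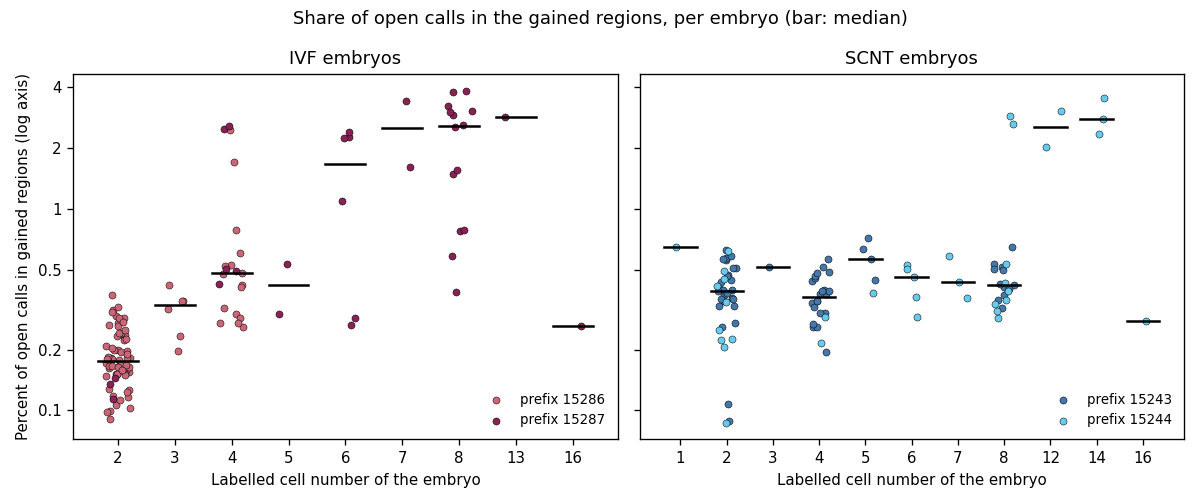
Percent of each embryo's open calls that fell in gained regions (y axis, log scale) against its labelled cell number (x axis), for IVF embryos on the left and SCNT embryos on the right, coloured by title prefix, with a bar at the median of each cell number. Values over 1% appear in some IVF embryos from 4 cells on and, among SCNT embryos, in 2 of the 8-cell embryos and in those of 12 and 14 cells.

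IVF 4-cell embryos fell into a large low set and a small high set. The percent ran from 0.259 through a median of 0.483 to 2.58 in 21 embryos, and 17 of them lay between 0.259 and 0.787. The remaining 4 were blastomere_518 at 1.71, blastomere_517 at 2.47, blastomere_552 at 2.49 and blastomere_588 at 2.58. The first pair has prefix 15286 and the second has 15287. Their median open calls per blastomere were 10372, 8669, 18744 and 26341 in the same order. The 4-cell embryo with the most calls by this measure, blastomere_555 with 29991, stood at 0.787. Of the 14 blastomeres of the 4 embryos, 3 lacked a block in blastomere_518 and 1 in blastomere_588.

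Among IVF embryos of 5 to 7 cells the percent ran from 0.264 through 1.36 to 3.41 in 10 embryos. The 5-cell embryos were at 0.302 and 0.534. The 6-cell embryos spread widely, with blastomere_524 and blastomere_587 (a label that a 4-cell embryo also carries) at 0.264 and 0.289, blastomere_523 at 1.09, and blastomere_586, blastomere_522 and blastomere_554 at 2.25, 2.28 and 2.41. The 7-cell embryos were at 1.62 and 3.41. The embryo with the lowest percent, blastomere_524, had a median of 22192 calls per blastomere and no blastomere lacking a block, while blastomere_554, at 2.41, had 27742 calls. With blastomeres of 5000 to 15000 calls alone the group median was 1.01. It was 1.37 with at least 3000 calls and 1.28 when blastomeres were thinned to 2000 calls. The part of depth in the values of single embryos was not tested.

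Whether single regions differed between IVF 5-7-cell and 4-cell embryos was tested for all rows at once with a quasi-Poisson score test over embryos, its dispersion moderated with limma, with depth in the model and Benjamini-Hochberg adjustment. No gained region passed an adjusted p of 0.05 among the 1480 that had a call in at least 10% of the embryos, and the share called over all 143682 rows tested was 0%. The score test without its exact bound also called 0. Without the filter, which left all but 1 gained region in the test, 12% of gained regions had an unadjusted p under 0.05, all of them in the direction of more calls at 5 to 7 cells. Of all rows 0.911% had such a p in that direction and 1.29% in either. The observed calls at 5 to 7 cells were above those fitted without a difference in 88.9% of gained regions and 46.7% of all rows.

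In the filtered fit the share was also 12%, beside 2.33% of all rows, and with the filter at 25% of embryos 12.2% beside 3.45%. It depended on the libraries compared. All 5-7-cell embryos have prefix 15287, and against the 5 4-cell embryos of that prefix 0.248% of the gained regions tested, or 4 regions, had an unadjusted p under 0.05, beside 0.172% of all rows. Leaving out blastomeres that lack a block brought it to 1.31%, or 19 regions, beside 0.778%. With depth measured on the commonly open regions it was 6.62% beside 2.73%. These 3 values come from filtered fits. Fewer embryos or blastomeres entered both narrower comparisons, and the part of the lost blocks in the pooled share was not tested.

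The same regions could be compared between the 2 prefixes within the IVF 4-cell stage. The percent of calls in gained regions had a median of 0.446 over 16 embryos of prefix 15286 and 0.502 over 5 of prefix 15287. The moderated score test called 0 gained regions, with or without the exact bound, and 0% of all rows. Without the filter 2.96% of gained regions, or 47, had an unadjusted p under 0.05, all in the direction of more calls in 15287, beside 0.232% of all rows in that direction and 0.269% in either. In the filtered fit the count was 41, or 3.63% beside 0.456%. It was 47 with the filter at 5% of embryos, or 3.32% beside 0.372%. With the filter at 25% it was 2, or 0.735% beside 0.411%. Leaving out blastomeres that lack a block brought it to 1, or 0.0918%, under the 0.148% of all rows. Observed calls in 15287 were above the fitted value there in 83.7% of gained regions and 58.2% of all rows. Fewer embryos and blastomeres entered that fit, and the part of the lost blocks in the prefix difference was not tested. Leaving out an embryo also lowered the number of embryos in which a call was needed, so more rows were tested. The count was then 2 without blastomere_588, or 0.165% beside 0.0642% of all rows, and 11 without blastomere_552, or 0.797% beside 0.192%. It was 42, or 2.97%, without blastomere_550 or without blastomere_589, beside 0.311% and 0.335% of all rows. Without blastomere_590 it was 8.17% of the gained regions tested, beside 0.741% of all rows.

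SCNT embryos up to the 7-cell stage all had less than 1% of their calls in gained regions. The percent ran from 0.0868 through 0.391 to 0.624 in 37 SCNT 2-cell embryos, from 0.196 through 0.364 to 0.561 in 24 4-cell embryos and from 0.29 through 0.458 to 0.713 in 13 5-7-cell embryos. The single 3-cell embryo stood at 0.515 and the 1-cell blastomere at 0.647. The 3 medians lie within the range of each other's embryos.

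At 8 cells the SCNT embryos ran from 0.287 through 0.42 to 2.87 in 21 embryos. Only blastomere_65 and blastomere_115 were above 1%, at 2.63 (95% exact binomial interval 2.51 to 2.74) and 2.87 (2.73 to 3.02), and these intervals cover counting error only. The other 19 ran from 0.287 through 0.408 to 0.65. Both high embryos have prefix 15244, to which 9 of the 21 8-cell embryos belong. They had medians of 12520 and 8589 calls per blastomere, beside a group median of 7061.

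These 2 embryos held 29.2% and 22% of all gained-region calls of the SCNT 8-cell group, although they gave 13 of its columns. A gained region was open in a mean of 19.9% of the blastomeres of blastomere_65 and 12.8% of those of blastomere_115, but in 1.51% of those of the other 19 embryos. The means of all rows were 4.53%, 2.68% and 2.14%. The group mean at 8 cells thus describes neither kind of embryo.

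In SCNT embryos of 12 to 16 cells the percent was 0.279 in blastomere_111, 2.03 in blastomere_67, 2.34 in blastomere_113, 2.8 in blastomere_64, 3.05 in blastomere_114 and 3.55 in blastomere_112. The first of these, the only SCNT embryo labelled 16-cell, lay below every SCNT 8-cell embryo, whereas the 5 labelled 12-cell or 14-cell lay above the 19 lower SCNT 8-cell embryos. It was not shallow, with 14 blastomeres and a median of 13944 calls. The IVF embryos past 8 cells gave a like pair of values, 2.85 in the 13-cell embryo and 0.262 in a 16-cell embryo of which only 2 blastomeres had 1000 calls and both lacked a block. All SCNT embryos of 12 to 16 cells have prefix 15244.

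**Figure D3:**
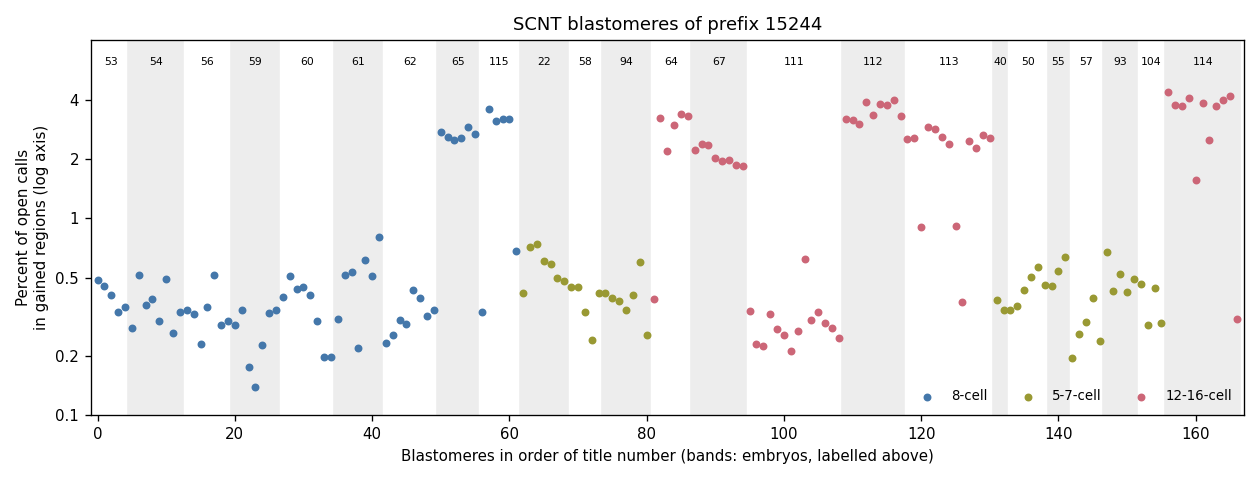
Percent of open calls in gained regions (y axis, log scale) for single SCNT blastomeres of prefix 15244 with at least 1000 calls and 5 or more cells in the embryo, in order of title number (x axis), with embryos as bands under their numbers. Most blastomeres of the 2 high 8-cell embryos and of the 12-cell and 14-cell embryos are above 1%, while those of the 16-cell embryo run from 0.213 to 0.625.

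Large steps between neighbouring titles occurred between embryos and within them. The last blastomere of blastomere_62, title 15244X055, had 0.344% of its calls in gained regions, and the first of blastomere_65, title 15244X057, had 2.74%. Title 15244X118, in blastomere_67, had 1.84% and title 15244X119, in blastomere_111, had 0.338%. Title 15244X133, the last of blastomere_111, had 0.246% and title 15244X134, in blastomere_112, had 3.17%. Within blastomere_115 the percent went from 0.335 to 3.57 between neighbouring blastomeres and later from 3.19 to 0.685, and within blastomere_114 from 4.17 to 0.308.

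Comparing SCNT 12-16-cell with 8-cell embryos, region by region and by the same test, called 3 gained regions with more calls at 12 to 16 cells, of 1581 tested, where the share called over 181711 rows was 0.0534% in that direction and 0.0572% in either. That is 0.19% of the gained regions tested, below the regions open at both stages. Of the latter 81 of 15721 were called, or 0.515%, 79 of them with more calls at 12 to 16 cells. Without the filter, which left all but 2 gained regions in the test, none was called, and the share called over all rows was 0%. There 37.8% of gained regions had an unadjusted p under 0.05, beside 3.97% of all rows, and all but 2 of them had more calls at 12 to 16 cells, the direction of 2.9% of all rows. Observed calls lay above the fitted value in 93.4% of gained regions and 44.1% of all rows. Among regions with calls in both groups, the median log2 ratio of the gained regions was 1.63 with and without the filter. That of all rows tested was -0.07 with the filter and 0.39 without it.

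The share of gained regions called in this contrast moved with the embryos and settings used. It was 0.19% as given above, 8.24% without blastomere_111 and 11.2% without blastomere_65 and blastomere_115, while the shares of all rows called were 0.48% and 0.841%. Both of those alternatives were chosen after the values were seen. It was 0 with a minimum of 3000 calls, beside 0.0227% of all rows, 4.18% with a filter at 25% of embryos, beside 0.859%, and 3.04% by the score test alone, beside 0.376%. Among regions open at both stages the share was 0.216% with a minimum of 3000 calls and 3.32% by the score test alone. It was 2.53% with the filter at 25%, 3.31% without blastomere_111 and 6.34% without blastomere_65 and blastomere_115. Within prefix 15244, where 9 SCNT 8-cell embryos remain and include both high ones, no gained region and 0% of all rows were called. There 8.98% of gained regions had an unadjusted p under 0.05, beside 2.73% of all rows, whereas the filtered fit of both prefixes gave 39.2% beside 6.22%. With the filter at 25% of embryos, both prefixes gave 39.7% beside 14%. In simulated data of this contrast the test recovered 1 of 50 rows with a 4-fold rise, so a count near 0 says little about single regions.

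The 3 regions called were V23075, V27371 and V45841. V23075 was open in 21 of 61 SCNT 12-16-cell blastomeres from all 6 embryos and in 3 SCNT 8-cell blastomeres, or 2.13%, from 3 embryos. By embryo it was open in 1 of 6 blastomeres of blastomere_64, 2 of 8 of blastomere_67, 1 of 14 of blastomere_111, 5 of 9 of blastomere_112, 4 of 13 of blastomere_113 and 8 of 11 of blastomere_114. Its log2 ratio was 3.25 ± 0.96 (SE; 6 and 21 embryos), with a Benjamini-Hochberg adjusted p of 0.0489 in the limma-moderated test.

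V27371 was open in 20 of 61 blastomeres against 3 in the 8-cell group (log2 ratio 3.18 ± 0.93, SE; limma-moderated adjusted p = 0.0489). There were 6 open blastomeres in each of blastomere_112 and blastomere_113, 3 in each of blastomere_67 and blastomere_114, 2 in blastomere_64 and 0 of 14 in blastomere_111. V45841 was open in 18 of 61 against 2 in the 8-cell group (3.61 ± 1.08, SE; adjusted p = 0.0489 in the limma-moderated test), again with 0 of 14 in blastomere_111 and with 2 to 5 open blastomeres in each of the other 5. In IVF 4-cell and 5-7-cell embryos, V23075 was open in 5.63% and 5.45% of blastomeres, V27371 in 7.04% and 7.27%, and V45841 in 9.86% and 20%. All 3 adjusted p-values sit just under the threshold.

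Among the SCNT stages up to 8 cells, no gained region was called in any comparison by the limma-moderated score test, with or without its exact bound, and the share called over all rows was 0% in each. For 8-cell against 2-cell embryos, 5 gained regions in the unfiltered fit, or 0.313%, had an unadjusted p under 0.05, beside 0.935% of all rows. For 8-cell against 4-cell embryos it was 8, or 0.502%, beside 0.79%, and for 4-cell against 2-cell embryos 1, or 0.0781%, beside 0.415%. These shares were under those of all rows, but they rest on few regions, and the order turned in some other fits. For 8-cell against 4-cell embryos the share was 5.88%, or 2 of 34 regions, beside 4.16% with the filter at 25% of embryos. In the unfiltered fit of 8-cell against 2-cell embryos, observed 8-cell calls were above the fitted value in 74.9% of gained regions and 50.9% of all rows. The values were 73.8% and 50.2% for 8-cell against 4-cell and 43.6% and 42.7% for 4-cell against 2-cell embryos.

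Over regions with calls in both groups, the median log2 ratio of the gained regions in the filtered fits was 0.55 for 8-cell against 2-cell and 0.43 for 8-cell against 4-cell SCNT embryos, beside 0.03 and -0.15 for all rows. The medians of the gained regions rest on the minority of them that passed the filter and had calls in both groups. Some regions passed it through 8-cell calls alone and have no ratio, so these medians do not describe the whole set. In the unfiltered fits, over more regions, the medians were 0.33 and 0.43, beside -0.25 and -0.16 for all rows. In filtered fits without blastomere_65 and blastomere_115, over still fewer gained regions, the medians were 0.28 and 0.05. Those of all rows were -0.04 and -0.08 there. With depth measured on the commonly open regions they were -0.05 and 0.02, while the medians of all rows moved to -0.53 and -0.57. Within prefix 15243, which holds neither embryo, they were -0.04 and 0.02, beside -0.11 and -0.33 for all rows. Within prefix 15244 the 8-cell against 2-cell median was -0.9 beside -1.48. Most gained regions had no 2-cell call there and so no ratio, and observed 8-cell calls were above the fitted value in 80.7% of gained regions and 59.5% of all rows.

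SCNT and IVF embryos were set side by side at matched cell numbers outside the groups that chose the regions, with type, prefix and organism label confounded. At 4 cells no gained region was called (0 of 780, beside 0.00206% of all rows, limma-moderated score test), and the test without its exact bound called 1, or 0.128% beside 0.401% of all rows. Unfiltered, 36 gained regions, or 2.23%, had an unadjusted p under 0.05, beside 1.59% of all rows. Of those, 29 had fewer calls in SCNT, the direction of 0.595% of all rows. The embryo percents overlap widely, 0.196 to 0.561 in SCNT and 0.259 to 2.58 in IVF, and 4 of 21 IVF and 0 of 24 SCNT embryos were over 1%.

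At 5 to 7 cells none was called either (0 of 1450, beside 0.0067% of all rows), nor by the score test without its exact bound. Here 408 gained regions in the unfiltered fit, or 24.9%, had an unadjusted p under 0.05, beside 3.39% of all rows, and all but 1 of them had fewer calls in SCNT, the direction of 1.77% of all rows. Observed SCNT calls were above the fitted value in 7.21% of gained regions and 51.4% of all rows. In the filtered fit the share was 28.1% beside 6.19%, and leaving out blastomeres that lack a block gave 379 of 1292, or 29.3%, beside 5.42%. With the filter at 25% of embryos it was 29.6% beside 11.5%. The share of all rows thus rose as rows with few calls were left out. The embryo percents still overlap, since the 13 SCNT embryos ran from 0.29 to 0.713 and 4 of the 10 IVF embryos from 0.264 to 0.534.

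Most blastomeres of an embryo had like percents. A level of 1%, set after the values were seen, was passed by 0 of 57 SCNT 2-cell, 0 of 75 4-cell and 0 of 59 5-7-cell blastomeres, by 10 of the 8-cell blastomeres, or 7.09%, and by 42 of 61 at 12 to 16 cells. In IVF it was passed by 15 of 71 4-cell and 30 of 55 5-7-cell blastomeres. Outside the groups used by the rule, 18 embryos were over 1% as a whole and held 120 blastomeres, of which 17 in 10 embryos were under 1%, 15 of them with at least 3000 calls.

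Some of these low blastomeres had more calls than the shallowest of their high sisters, and others had fewer than all of them. In SCNT blastomere_114 a blastomere with 14727 calls had 0.308%, while the other 10, with at least 8679 calls, had 1.57% to 4.39%. In SCNT blastomere_113 those with 15303 and 14374 calls had 0.899% and 0.919% and 1 with 1995 calls had 0.375%, while the other 10, with at least 4112 calls, had 2.26% to 2.92%. In SCNT blastomere_115 those with 7312 and 3260 calls had 0.335% and 0.685%, and the other 4, with at least 6465 calls, had 3.13% to 3.57%. Those with 1995 and 3260 calls had fewer calls than any of their high sisters. The same held for the low blastomeres of the following embryos. In SCNT blastomere_64 a blastomere with 6951 calls had 0.39%, beside 2.2% to 3.39% in the other 5, with at least 8933 calls. In the IVF 4-cell embryo blastomere_588 a blastomere with 19764 calls that lacked a block had 0.699%, beside 2.77% to 3.42% at 21875 calls or more. In blastomere_518 a blastomere with 3698 calls had 0.278%, beside 1.41% to 2.8% at 7802 calls or more. In the IVF 6-cell embryo blastomere_523 only 1 of 5 blastomeres was over 1%, at 1.76% with 12473 calls. Its low sisters, with 2019 to 10430 calls, had 0.487% to 0.892%. In the IVF 13-cell embryo a blastomere with 6792 calls had 0.561%, beside 2.19% to 3.84% in the other 9, with at least 10746 calls.

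Other sets of regions were measured in the same embryos. The percent of calls in regions open at both stages was 34.1 in SCNT blastomere_65 and 37.9 in blastomere_115, against 7.53 through 23.5 to 27.9 in the other 19 SCNT 8-cell embryos. At SCNT 12 to 16 cells it was 31.3 in blastomere_111, inside the 30.3 to 41.3 of the 5 embryos with a high percent in gained regions. For the mirror set the values in blastomere_65 and blastomere_115 were 0.0939 and 0.0605, against 0.086 through 0.205 to 0.261. In SCNT 12-16-cell embryos the mirror set held 0.0438% to 0.0891% of the calls of the 5 high embryos and 0.207% of those of blastomere_111. In the 4 high IVF 4-cell embryos it held 0.0416% to 0.0868%, and in the other 17 it held 0.126% to 0.318%. Thus embryos with a high percent in gained regions had a low percent in the mirror set, in groups that chose neither set. A low mirror percent also occurred beside a low percent in gained regions. The SCNT 2-cell embryo blastomere_98, with 1 blastomere of 5084 calls, had 0.0357% and 0.357%.

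**Figure D4:**
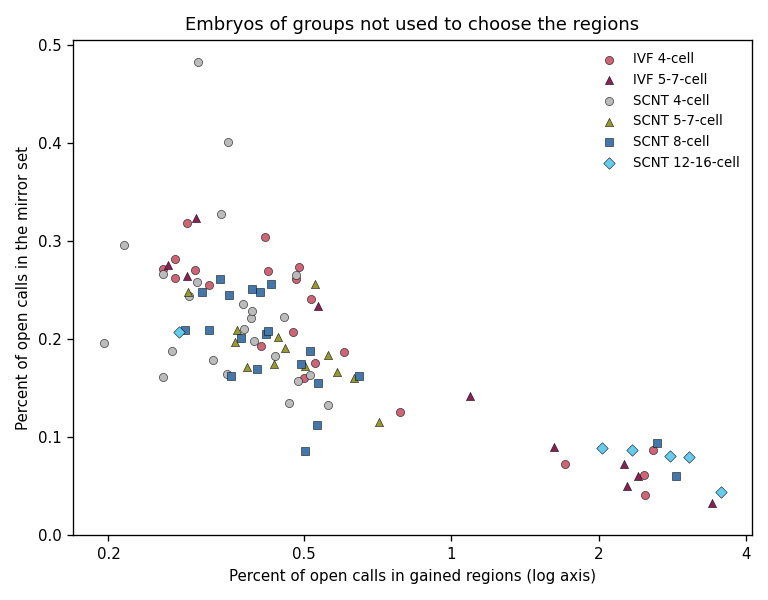
Percent of each embryo's open calls in gained regions (x axis, log scale) against the percent in the mirror set (y axis), for embryos of the groups that chose neither set. All embryos over 1% on the x axis lie at or below 0.142% on the y axis, and the SCNT 16-cell embryo lies with the low SCNT embryos at 0.279% and 0.207%.

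The gained regions open in IVF 5-7-cell and in SCNT 12-16-cell embryos were also counted. At least 15% of blastomeres had an open call in 38.7% of gained regions at IVF 5 to 7 cells and in 41% at SCNT 12 to 16 cells. Both lists shared 300 regions, which is 47.2% of the first and 44.6% of the second, and 38.6% of gained regions were in neither. With 58 and 64 columns a single region's share has a wide counting error. Among all rows 5.56% and 5.54% reached 15% in these groups, and 9398 did so in both, which is 61.7% of the first list and 61.8% of the second. At IVF 4 cells 48 gained regions reached it, or 2.93% beside 3.04% of all rows. At SCNT 5 to 7 cells 7 did, or 0.427% beside 1.85%, and at SCNT 8 cells 1, or 0.061% beside 1.1%.

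Across the gained regions, the share of blastomeres open at IVF 5 to 7 cells had a Pearson correlation of 0.564 with that at IVF 4 cells and of 0.177 with that at SCNT 12 to 16 cells (Spearman 0.54 and 0.123). SCNT 8-cell and 12-16-cell shares had 0.411 (Spearman 0.392), and IVF 4-cell and SCNT 12-16-cell shares 0.0516 (Spearman 0.0242). Of the SCNT 8-cell calls in gained regions, blastomere_65 and blastomere_115 held 29.2% and 22%, and their part in the value of 0.411 was not tested. The points are the regions counted in the opening, not replicates. Groups of a type share prefixes and, for IVF, the loss of blocks, so the order of these values describes the table only.

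Single regions show how far the groups can part. The regions open most often in IVF 5-7-cell blastomeres were V3515, V149928, V118129, V93521 and V180413, at 41.4%, 37.9%, 36.2%, 34.5% and 34.5%. V3515 was open in 24 of 58 IVF 5-7-cell blastomeres from 6 embryos, in 14.7% of IVF 4-cell blastomeres, and in 1.41%, 7.79%, 6.56%, 7.59% and 15.6% of SCNT blastomeres at 2, 4, 5 to 7, 8 and 12 to 16 cells. V93521 was open in 0%, 1.3%, 1.64%, 4.83% and 37.5% of the same SCNT groups, with calls in 24 blastomeres of 5 embryos at 12 to 16 cells. Up to 7 cells its shares were below the means of 2.01%, 2% and 2.94% for all rows, at which few calls cannot be told from closed chromatin. V149928, V118129 and V180413 were open in 17.2%, 15.6% and 14.1% of SCNT 12-16-cell blastomeres.

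At the IVF 4-cell stage the leading regions were V34249, V241311, V208686, V749 and V6829, at 26.7%, 22.7%, 21.3%, 20% and 20%. V34249 had calls in 20 blastomeres of 11 embryos there and was also open in 23% of SCNT 5-7-cell blastomeres, but in only 6.25% at SCNT 12 to 16 cells. V6829 was open in 15 IVF 4-cell blastomeres of 11 embryos and in 3.28% of SCNT 5-7-cell and 20.3% of SCNT 12-16-cell blastomeres. These regions therefore had calls in more IVF 4-cell embryos than the 4 with a high overall percent.

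Among SCNT 8-cell blastomeres the leading regions were V194927 at 19.3%, V39878 and V98711 at 13.8%, V249006 at 12.4% and V108582 at 11.7%. V194927 was open in 28 SCNT 8-cell blastomeres of 13 embryos, in 9.86%, 11.7% and 27.9% of SCNT blastomeres at 2, 4 and 5 to 7 cells and in 31.2% at 12 to 16 cells. V39878 had calls in 15 SCNT 8-cell embryos and V249006 and V108582 in 13 and 12, so calls in these regions were not limited to blastomere_65 and blastomere_115. At the other end, V46992 was the only gained region with no call in any of the 421 SCNT columns, which allows a share of columns with a call of up to 0.713%. This limit covers counting error only, since the columns come from 110 embryos. It was open in 2 IVF 4-cell and 8 IVF 5-7-cell blastomeres, or 2.67% and 13.8%.

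Gained regions were found in all 29 blocks of the row numbering, with 18 to 131 per block, or 0.304% to 0.936% of a block's rows. The highest share was in block 9, where 73 of 7800 rows were gained, and the lowest in block 13, with 21 of 6900. A row directly before or after it was also gained for 7.5% of gained regions. Such a gained neighbour was present for 1.19% of all rows and for 2.27% of the regions open at both stages. The longest run was 3 rows.

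Rows next to a gained region that were not themselves gained lay between the gained regions and rows farther off in IVF 4-cell, IVF 5-7-cell and SCNT 12-16-cell embryos. In SCNT 8-cell embryos the next row lay below the 2.82% of gained regions and within the 2.09% to 2.29% of rows farther off. The share open at SCNT 12 to 16 cells was 5.55% for the next row and 3.66% at a distance of 50 rows, while at SCNT 8 cells it was 2.25% at both. In IVF it was 4.27% at 4 cells and 6.27% at 5 to 7 cells for the next row, and 3.92% and 4.36% at 50 rows. Whether neighbouring rows are neighbours on a chromosome was not tested.

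**Figure D5:**
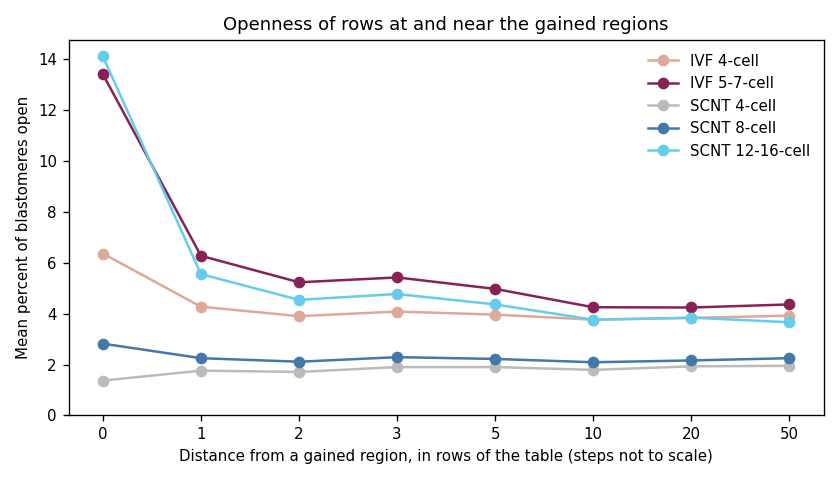
Mean percent of blastomeres open (y axis) in gained regions (distance 0) and in rows at 1 to 50 rows from them that are not gained (x axis, distance in rows, steps not to scale), for 5 groups not used to choose the regions. The IVF 5-7-cell and SCNT 12-16-cell lines drop from 13.4% and 14.1% at the regions to 6.27% and 5.55% in the next row, while the SCNT 8-cell line stays between 2.09% and 2.82%.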

How the data were processed

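Single-blastomere ATAC-seq libraries had been processed by the authors with FastQC 0.10.1, Bowtie2 2.2.6 and bedtools, per the submitters' processing notes. No source used here gives the genome build or the rule for an open call. The deposited table has 302830 rows and 819 columns of 0 or 1 and no counts. Column numbers form 4 runs that span 259, 230, 212 and 237 numbers, as many as each title prefix has titles, and a constant offset was taken for each run. This link is inferred. Of 938 labelled libraries, 119 have no column.

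The rule found 1640 of 274100 rows, from 103 IVF 8-cell and 129 IVF 2-cell columns, and 244 rows in the mirror set. Regions, comparison sets and tests were chosen with earlier results of these data known. Percents of calls were summed per embryo over rows V1 to V274100, using blastomeres with at least 1000 calls. For region tests the chance of an open call was 1 - exp(-ab), with a for the blastomere and b for the row, fitted on all rows of the groups compared. Calls observed and expected were then added up for each embryo, and rows with a call in at least 10% of the embryos were kept. The two-sided p is the larger of a quasi-Poisson score p, with dispersion moderated in limma 3.58.1 (R 4.3.3), and an exact binomial p, adjusted by Benjamini-Hochberg with a threshold of 0.05. Unfiltered fits tested 1638 gained regions for SCNT 12-16-cell against 8-cell, 1639 for IVF 5-7-cell against 4-cell, 1617 and 1637 for SCNT against IVF at 4 and 5 to 7 cells, 1586 between prefixes, and 1595, 1593 and 1281 for SCNT 8-cell against 2-cell, 8-cell against 4-cell and 4-cell against 2-cell embryos.

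The test was tried on simulated data first. It recovered 1 of 50 rows with a 4-fold rise for SCNT 12-16-cell against 8-cell embryos on 173611 rows, 0 of 50 for IVF 5-7-cell against 4-cell embryos on 143354 rows and no smaller change, and it called no unchanged row. Named regions are the 5 most open at IVF 4 cells, IVF 5 to 7 cells and SCNT 8 cells, those with no SCNT call, the 3 lowest-numbered on each side of each threshold, and those called. Blocks were found from correlations between bins of 100 rows, with a boundary under 0.35. Alternatives changed the minimum of calls, the row filter, the depth measure, the p-value, the thresholds of the rule and the blastomeres or embryos used.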

Additional observations from a re-analysis of the deposited data

How the results depend on the processing

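No paired analysis was possible because the groups compared share fewer than 2 embryo labels and no replicate number. Over 8 region comparisons, the share of tested gained regions that was called moved in 10 of 70 alternative fits. For SCNT 12-16-cell against 8-cell embryos it was 0.19% in the fit reported. It was 0 with at least 3000 calls per blastomere (0.0227% of all rows) and with the filter at 5% of embryos (0.0153%). It was also 0 with no filter and within prefix 15244, where 0% of all rows were called. It was 4.18% with the filter at 25% (0.859% of all rows), 0.886% with depth from commonly open regions (0.119%), 3.04% with the score test alone (0.376%), 8.24% without blastomere_111 (0.48%) and 11.2% without blastomere_65 and blastomere_115 (0.841%). Regions open at both stages were called at 0.184% with the filter at 5% and at 1.13% with depth from commonly open regions. At 4 cells, SCNT against IVF, the score test alone called 0.128%, beside 0.401% of all rows. With the filter at 25% no gained region could be tested for SCNT 4-cell against 2-cell embryos.

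Gained regions were 0.598% of the rows searched. They were 1.39% without blastomeres lacking a block, 1.64% and 0.228% with the 8-cell threshold at 10% and 20%, and 0.378% and 1.29% with the 2-cell threshold at 2% and 5%. The median percent of calls moved by more than 1 SD, or at all for a group of 1 embryo, in 15 alternatives and kept within it in 81. Regions chosen at 20% and 2%, which are fewer, gave 0.0265 for IVF 2, 0.0657 for IVF 3, 0.737 for IVF 8, 0.0818 for SCNT 2, 0.125 for SCNT 3, 0.084 for SCNT 4, 0.102 for SCNT 5-7 and 0.728 for SCNT 12-16 cells. IVF 3-cell embryos had 0.21 at 5000 to 15000 calls and 0.25 when thinned to 2000 calls. The SCNT 3-cell embryo had 0.477 and 0.425 there and 0.5 as a mean over blastomeres. SCNT 4-cell embryos of prefix 15244 had 0.254 and SCNT 5-7-cell embryos of prefix 15243 had 0.598. The causes were not tested. At 5000 to 15000 calls the medians were 1.01 for IVF 5-7, 1.48 for IVF 8, 0.427 for SCNT 8 and 2.54 for SCNT 12-16 cells. Thinned to 2000 calls they were 1.28, 2.64, 0.406 and 2.35 in the same order. Depth in reads is unknown, and the simulations show that few changes in a single region can be called at this depth.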

Other observations

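The last 28730 rows of the table, after V274100, were not searched by the rule. Of them 0.797% met the same thresholds. They were open in a mean of 6.57% of IVF 4-cell and 14.1% of IVF 5-7-cell blastomeres, beside 9.32% and 9.98% for all rows there. In SCNT embryos they were open in 0.923% at 2 cells, 1.22% at 4 cells, 2.32% at 5 to 7 cells, 2.53% at 8 cells and 12.1% at 12 to 16 cells, beside 4.35%, 4.4%, 6.61%, 6.32% and 8.25% for all rows there.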
